A study of Mus musculus with 3 samples.

Results

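Interferon-γ and the first steps of its signalling were followed through 8 genes in single cells of mouse glioblastoma: the cytokine gene Ifng, the receptor genes Ifngr1 and Ifngr2, the kinase genes Jak1 and Jak2, the transcription factor genes Irf1 and Irf8, and the inhibitor gene Socs1. They were taken by name, as 8 of the 50262 genes of the deposited table, and all 8 were present and annotated as protein coding. Cells came from the inDrop platform, a droplet method in which every captured transcript receives its own molecular tag (UMI). CD45, a surface protein of leukocytes, was used to sort viable cells into CD45+ immune cells and CD45- tumor and stromal cells.

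All animals carried a conditional human EGFR transgene, constitutive loss of Cdkn2a (Cdkn2a -/-), a conditional luciferase reporter and a further floxed gene that is not reported here, on a mixed genetic background, and were adult males and females. Tumors were started by intracranial injection of a lentivirus that carries Cre, so the EGFR transgene and the recombination of floxed alleles were limited to infected cells and their progeny, whereas every cell of the animal lacked Cdkn2a. The tumor-bearing brains were collected at an early, a medium and a large stage, the last called late here, and each stage was 1 sample. The study states that cells of pairs of animals were pooled for early samples where cells were few. Normal brain and mice without these alleles were not analysed here, so no tumor-free level was measured.

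There were 24 libraries, 4 for each stage and sort, spread over 3 sequencing runs. Libraries that share a sample and a sort repeat its measurement and are not replicates. After filtering, 17781 cells remained, with 5091 early, 3983 medium and 2111 late CD45+ cells and 2725 early, 1603 medium and 2268 late CD45- cells. A library held between 62320 and 4226043 UMIs. The 2 late CD45+ libraries of run 1 stood apart with 17 and 91 cells, and leaving them out changed no call of a member given here. Of 15845 distinct cell barcodes, 1660 occurred in more than 1 library, 566 of them in libraries of the same run. Levels are the UMIs of a gene scaled to a total of 1000000 UMIs in the same group of cells (CPM), and 3 levels given together stand in the order early, medium, late. Because only transcript ends are counted, a level is compared between classes for the same gene and not between genes.

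Interferon-γ is secreted mainly by activated T cells and natural killer (NK) cells. It binds a receptor built from a ligand-binding chain (Ifngr1) and an accessory chain (Ifngr2), which carry the kinases Jak1 and Jak2. Signalling from these kinases reaches GAS elements in promoters such as that of Irf1. Irf1 and Irf8 act on further genes of antigen presentation and defence, and Socs1 switches the kinases off. In the brain, microglia and infiltrating macrophages are known responders, and MHC class II, guanylate-binding proteins and the chemokine Cxcl9 are classical read-outs.

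The promoters of Irf1, Irf8, Socs1 and Ifng are shown because among the 8 genes these promoters held the letters bound by the pathway's own factors. They come from RefSeq (GRCm38.p6), are the 250 bases before the transcript start, and are written 5′ to 3′ on the strand of the gene. Capitals mark matches to a GAS element (TTCNNNGAA, which reads the same on both strands) or to an IRF element (a pair of GAAA repeats 2 bases apart, on either strand).
Irf1, chr11:53769764-53770013, plus strand: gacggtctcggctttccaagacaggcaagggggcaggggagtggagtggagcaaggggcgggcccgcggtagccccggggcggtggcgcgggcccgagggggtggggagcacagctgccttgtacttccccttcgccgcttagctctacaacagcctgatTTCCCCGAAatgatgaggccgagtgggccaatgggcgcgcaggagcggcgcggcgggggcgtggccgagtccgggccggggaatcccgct
Irf8, chr8:120736108-120736357, plus strand: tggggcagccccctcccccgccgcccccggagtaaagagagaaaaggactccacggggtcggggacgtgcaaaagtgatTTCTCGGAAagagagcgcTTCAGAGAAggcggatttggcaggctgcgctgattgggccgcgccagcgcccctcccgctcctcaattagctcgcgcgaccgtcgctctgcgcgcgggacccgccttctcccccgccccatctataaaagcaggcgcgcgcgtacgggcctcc
Socs1, chr16:10785537-10785786, minus strand: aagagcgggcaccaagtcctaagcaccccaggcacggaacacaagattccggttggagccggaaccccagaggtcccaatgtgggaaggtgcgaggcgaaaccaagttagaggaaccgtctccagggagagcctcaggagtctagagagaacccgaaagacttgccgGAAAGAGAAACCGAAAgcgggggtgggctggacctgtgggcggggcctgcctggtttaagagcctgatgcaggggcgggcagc
Ifng, chr10:118440796-118441045, plus strand: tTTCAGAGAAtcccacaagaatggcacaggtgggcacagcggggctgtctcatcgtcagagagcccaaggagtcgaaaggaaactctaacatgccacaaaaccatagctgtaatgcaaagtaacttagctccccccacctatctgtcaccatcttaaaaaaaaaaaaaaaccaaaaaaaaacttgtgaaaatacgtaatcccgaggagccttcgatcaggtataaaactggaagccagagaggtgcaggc
Irf1 held 1 GAS element 90 bases before its start, and Irf8 held GAS elements 171 and 153 bases before its first annotated start. Socs1 held 2 overlapping IRF elements, 83 and 77 bases before the start. Ifng held 1 GAS element 249 bases before its start. Ifngr1, Ifngr2, Jak1, Jak2 and the second annotated starts of Irf1 and Irf8 held neither set of letters. The search covered 300 bases for each start, the 250 shown and the 50 after it, where none of these promoters held a further match. Among 32851 RefSeq windows of 300 bases, 8.30% held a GAS element and 3.44% an IRF element. A match describes letters and not binding.

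Ifng (ENSMUSG00000055170, chr10:118441046-118445892, plus strand, GENCODE M21 on GRCm38) was found in CD45+ cells alone. The CD45+ sort held 666 Ifng UMIs of 25919211, which is 25.7 CPM, in 156 cells. The CD45- sort held 0 of 25249375 UMIs. With a floor of 3 UMIs over the whole CD45- sort, the level was at least 216-fold higher in CD45+ cells. None of 6596 CD45- cells had an Ifng UMI, which allows a share of up to 0.0455% of cells with a UMI. The CD45+ sort held 19.985, 42.8 and 6.32 CPM. Among the 12 CD45+ libraries the lowest held 0, the median 20.7 and the highest 61.9 CPM, and the 10 with at least 100 cells held from 4.17 to 61.9 CPM. In a sum over a sort, fewer cells of a type and less RNA per cell cannot be told apart, so Ifng was next assigned to cells.

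Leukocytes were divided into classes by marker genes, with the 8 genes left out of the clustering. T cell-like and NK cell-like cells were 7.35% of the CD45+ cells (822 cells) and held 567 of the 666 Ifng UMIs, or 85.1% (exact 95% interval 82.2 to 87.8%). Nearly all of these lay in T cell-like cells, with 555 UMIs in 778 cells, whereas 44 NK cell-like cells held 12 UMIs (1.80%). The NK cell-like class depended on how cells were named, with 91 cells and 33 UMIs (4.95%) when each cell was named by its own markers, and 0 cells at clustering resolution 2. The share of T cell-like and NK cell-like cells of all Ifng UMIs was 74.5% early, 90.4% medium and 88.2% late. Without the 2 small late libraries the share over all stages was 85.3%. The late value rests on 34 UMIs, of which NK cell-like cells held 6. Intervals of UMIs and cells cover counting error only, not the spread between animals.

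In T cell-like cells the Ifng level was 252 CPM early, 428 CPM medium and 92.1 CPM late. In microglia-like cells it was 0.368, 2.68 and 0 CPM, and in macrophage or monocyte-like cells 0, 2.47 and 2.05 CPM. The microglia-like and macrophage or monocyte-like classes held 8 and 12 Ifng UMIs in all, against 555 in T cell-like cells. No myeloid sum reached the cutoff of the count filter, so a test of Ifng could only come out higher in T cell-like cells, and no p is given.

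An Ifng UMI was found in 113 of 778 T cell-like cells, 14.5% (exact 95% interval 12.1 to 17.2%). After thinning each cell to 1000 UMIs it was 11.3% (86 of 758 cells). Free RNA in droplets can give a UMI to a cell that does not express a gene, so the share was read beside classes that should lack Ifng. In microglia-like cells 7 of 5869 had an Ifng UMI (0.119%), and in dendritic cell-like cells 0 of 288, which allows up to 1.04%. Median UMIs per cell were 1918 in T cell-like, 1901 in microglia-like and 2363 in dendritic cell-like cells. NK cell-like cells had an Ifng UMI in 4 of 44 cells (9.09%). Only 16, 24 and 4 NK cell-like cells were present per stage, so under the minimum of 20 cells per side only the medium sample was left and the classes were not tested. Under 2 other ways of naming cells the early and the medium sample held enough cells. At clustering resolution 2 no cell was NK cell-like. When each cell was named by its own markers, NK cells had 249.8 CPM early and 75.1 CPM medium, from 18 and 7 UMIs. T cells had 309.9 and 478 CPM, and the log2 fold change of NK against T cells was -1.43. With doublet calls kept, NK cell-like cells had 119 and 42.7 CPM, from 4 and 2 UMIs. T cell-like cells then had 288 and 425 CPM, and the log2 fold change was -2.51. Since 2 tumor samples fall short of the 3 used in the tests, no p is given.

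A small number of T cell-like cells held much of the transcript. Among the 113 cells with an Ifng UMI the median was 3 UMIs and the highest 36, and 35 cells had 1 UMI. The 10 highest cells held 219 of the 555 UMIs (39.5%). In the late sample 24 UMIs lay in 5 cells, and 12 of these in 1 cell. Without the UMIs of that cell the late level was 46.1 CPM instead of 92.1 CPM.

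**Figure D1:**
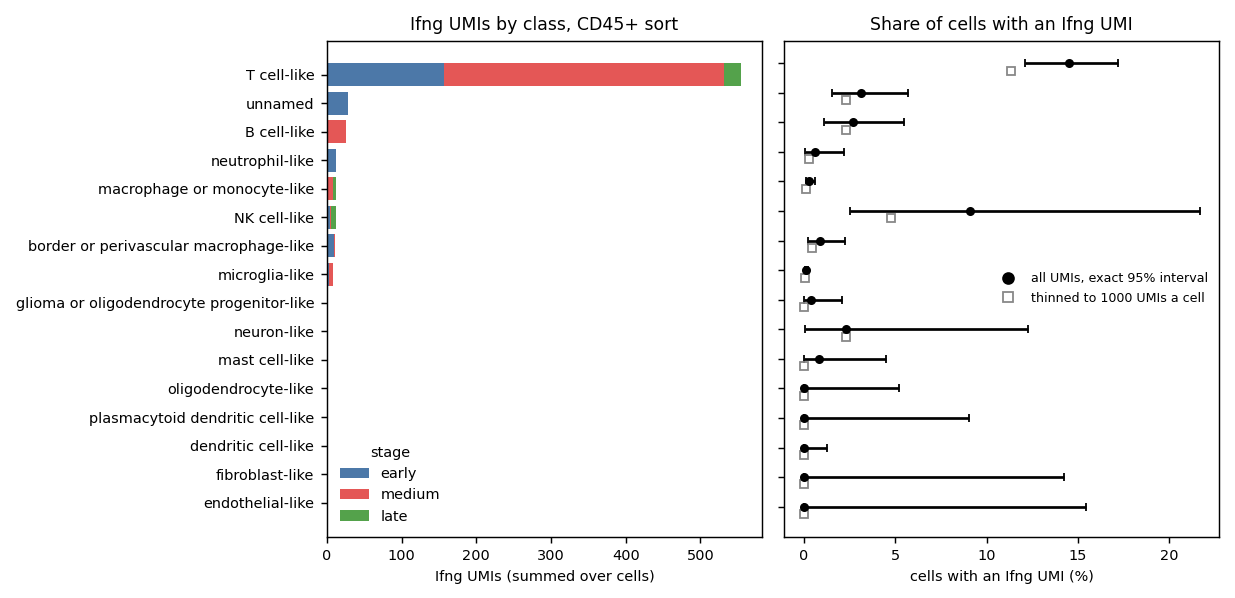
Left, summed Ifng UMIs of each marker-defined class of the CD45+ sort, with bars divided by the stage of the tumor sample. Right, percent of cells with an Ifng UMI in each class with its exact 95% interval (circles) and after thinning to 1000 UMIs per cell (squares). T cell-like cells held 555 of 666 UMIs and had the highest bar, with 14.5% of cells carrying a UMI.

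Ifng UMIs were found in T cell-like cells with CD8 UMIs and in those with Cd4 UMIs. T cell-like cells with a UMI of Cd8a or Cd8b1 and none of Cd4 had an Ifng UMI in 48 of 267 cells (18.0%), at 282 CPM. Those with a Cd4 UMI and no CD8 UMI had one in 31 of 145 cells (21.4%), at 739 CPM. Most of the Cd4 signal came from the medium sample, where 26 of 76 cells held 209 Ifng UMIs, at 1184 CPM. In the early sample 2 of 36 such cells (5.56%) held 30 UMIs, at 430.3 CPM, and in the late sample 3 of 33 (9.09%) were at 177 CPM. In CD8 cells the level was 318 CPM early, 259.7 CPM medium and 178 CPM late, with a UMI in 23 of 120 (19.2%), 23 of 129 (17.8%) and 2 of 18 cells (11.1%). The share with a UMI was thus above that of CD8 cells in the medium Cd4 cells and below it in the early and late ones. Cells with neither UMI had Ifng in 32 of 353 cells (9.07%), at 156 CPM, and in the late sample in 0 of 57 cells.

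Among the clusters of T cell-like cells the level, pooled over stages that the clusters hold in different shares, spanned a wide range. The cluster led by 1810009J06Rik, Gm2663 and Gm156 held 166 Ifng UMIs at 931 CPM (795 to 1084 CPM), with a UMI in 35.6% of its cells, and 85 of its 87 cells were from the medium sample. Next came the cluster led by Gm14718, Dkkl1 and Sdcbp2, with 654.6 CPM (463 to 898 CPM) from 38 UMIs in 35 cells, 35 of these UMIs early. The cluster led by Gzmb, Cd8a and Fasl, genes of cytotoxic cells, had 469.6 CPM, and the cluster led by Tcrg-C2, Tnfrsf9 and Lta had 347 CPM. At the low end, the cluster led by Gimap9, Gimap3 and Cd2 had Ifng UMIs in 2 of 95 cells, at 14.0 CPM. The cluster led by Il13 and Il5, cytokines of type 2 immunity, had 5 UMIs in 50 cells and none in its 42 late cells. That cluster was 38.5% of late T cell-like cells.

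Outside T cell-like and NK cell-like cells, Ifng UMIs were few. A cluster of 25 cells led by Gimap7, Cd226 and Samd3, which met no naming rule, held 27, and 20 of its cells were early. B cell-like cells held 25 UMIs in 7 cells, all in the medium sample. Macrophage or monocyte-like cells and neutrophil-like cells held 12 each, in 6 and 2 cells. Border or perivascular macrophage-like cells held 11 in 4 cells and microglia-like cells 8.

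Ifngr1, the ligand-binding chain (ENSMUSG00000020009, chr10:19591949-19610229, plus strand), was far more abundant in the CD45+ sort. CD45+ cells held 569.7, 276 and 389 CPM, and CD45- cells 76.8, 71.0 and 76.3 CPM. The lowest of 12 CD45+ libraries held 227 CPM and the highest of 12 CD45- libraries 85.0 CPM, so the sorts did not overlap. The log2 fold change was 2.77 (SE 0.26, adjusted p = 2.4e-04). By class, the mean over the tumor samples was 559 ± 189 CPM in T cell-like and 539.8 ± 84.7 CPM in microglia-like cells (SD, n = 3). Dendritic cell-like cells followed with 343 ± 139 CPM, border or perivascular macrophage-like cells with 303 ± 85.1 CPM, macrophage or monocyte-like cells with 296 ± 88.8 CPM and neutrophil-like cells with 183 ± 101 CPM. Neighbours in this order overlapped in every case.

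Ifngr2, the accessory chain (ENSMUSG00000022965, chr16:91547072-91565623, plus strand), had another order. CD45+ cells held 131, 121 and 160.0 CPM, against 22.5, 33.5 and 29.7 CPM in CD45- cells, with no overlap among the 12 and 12 libraries. The log2 fold change was 2.64 (SE 0.22, adjusted p = 1.7e-04). Macrophage or monocyte-like cells had the highest mean with 183 ± 12.7 CPM, before microglia-like cells with 164 ± 14.0 CPM and dendritic cell-like cells with 132 ± 76.0 CPM (SD, n = 3). Border or perivascular macrophage-like cells had 97.4 ± 39.7 CPM, neutrophil-like cells 80.6 ± 28.9 CPM and T cell-like cells 67.1 ± 23.6 CPM. Neighbours overlapped, but the 3 samples of T cell-like cells, from 40.2 to 84.5 CPM, lay below all those of the microglia-like and macrophage or monocyte-like classes.

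T cell-like cells, the main source of Ifng, had a high level of the ligand-binding chain and the lowest mean of the accessory chain among the 6 CD45+ classes compared. Ifngr2 was lower in T cell-like than in microglia-like cells, with a log2 fold change of -1.34 (SE 0.23, adjusted p = 4.7e-04). It was lower than in macrophage or monocyte-like cells too, at -1.63 (SE 0.26, adjusted p = 8.9e-04). Ifngr1 had a log2 fold change of 0.05 against microglia-like cells (SE 0.17, adjusted p = 0.86) and was higher than in macrophage or monocyte-like cells by 0.76 (SE 0.16, adjusted p = 0.0059). That last call had adjusted p = 0.075 without the tumor sample block and 0.053 without the early sample.

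Jak1, the kinase of the ligand-binding chain (ENSMUSG00000028530, chr4:101152367-101265282, minus strand), was higher in the CD45+ sort. CD45+ cells held 309, 215 and 265 CPM, and CD45- cells 103, 116 and 131 CPM, with no overlap between libraries of the sorts. The log2 fold change was 1.52 (SE 0.23, adjusted p = 0.0016). T cell-like cells had 474 ± 115 CPM, from 399 CPM in the late to 606 CPM in the early sample, and lay above every sample of the other 5 classes. Microglia-like cells had 299.7 ± 36.5 CPM, border or perivascular macrophage-like cells 286 ± 50.2 CPM and neutrophil-like cells 229.6 ± 60.4 CPM (SD, n = 3). Dendritic cell-like and macrophage or monocyte-like cells both had 195 CPM, with SDs of 68.4 and 41.2 CPM.

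Jak2, the kinase of the accessory chain (ENSMUSG00000024789, chr19:29251828-29313080, plus strand), was the member whose difference between the sorts did not pass the test. CD45+ cells held 29.1, 40.1 and 40.5 CPM and CD45- cells 34.8, 35.8 and 36.9 CPM, with a log2 fold change of 0.38 (SE 0.20, adjusted p = 0.17). Its highest class was dendritic cell-like, with 86.5 CPM early, 168 CPM medium and 225 CPM late, a mean of 160.0 ± 69.8 CPM (SD, n = 3). Neutrophil-like cells had 85.1 ± 42.9 CPM, T cell-like cells 56.1 ± 33.6 CPM, macrophage or monocyte-like cells 31.3 ± 4.80 CPM, microglia-like cells 29.4 ± 6.27 CPM and border or perivascular macrophage-like cells 20.5 ± 4.58 CPM. The dendritic cell-like samples lay above every sample of the 3 macrophage and microglia classes.

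Irf1, an early target and transcription factor whose promoter held a GAS element (ENSMUSG00000018899, chr11:53770014-53778374, plus strand), was higher in the CD45+ sort in every tumor sample. CD45+ cells held 188, 132 and 89.2 CPM, and CD45- cells 32.3, 81.3 and 23.5 CPM. Libraries overlapped, since the lowest CD45+ library had 37.8 CPM and the highest CD45- library 85.2 CPM. The log2 fold change was 2.09 (SE 0.35, adjusted p = 0.0029). Microglia-like cells had the highest mean with 196 ± 59.3 CPM, before border or perivascular macrophage-like cells with 144 ± 62.0 CPM and neutrophil-like cells with 141 ± 69.6 CPM (SD, n = 3). Dendritic cell-like cells had 117 ± 34.5 CPM, T cell-like cells 108 ± 11.6 CPM and macrophage or monocyte-like cells 95.3 ± 38.1 CPM, and neighbours overlapped.

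Irf8, a transcription factor of myeloid and dendritic cells with GAS elements in its promoter (ENSMUSG00000041515, chr8:120736358-120756694, plus strand), was steady in the CD45+ sort, with 526 CPM early, 505 CPM medium and 499.8 CPM late. CD45- cells held 42.5, 44.2 and 11.8 CPM, and libraries did not overlap. The log2 fold change was 4.52 (SE 0.45, adjusted p = 3.9e-04). Dendritic cell-like cells had 412, 1228 and 746 CPM, a mean of 795 ± 410.1 CPM (SD, n = 3). Microglia-like cells had 633 ± 46.2 CPM, macrophage or monocyte-like cells 480.2 ± 110.2 CPM, border or perivascular macrophage-like cells 348 ± 27.7 CPM, T cell-like cells 229.55 ± 124 CPM and neutrophil-like cells 118 ± 153 CPM. Of these neighbours, macrophage or monocyte-like and border or perivascular macrophage-like cells did not overlap.

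Socs1, the inhibitor of the kinases with IRF elements in its promoter (ENSMUSG00000038037, chr16:10782240-10785536, minus strand), was the rarest member beside Ifng, with 678 UMIs in 405 cells. CD45+ cells held 11.6, 26.6 and 12.4 CPM, and CD45- cells 3.33, 20.7 and 6.04 CPM. Libraries of the sorts overlapped, from 0 to 32.9 CPM in CD45+ and from 1.38 to 34.0 CPM in CD45- libraries. The log2 fold change was 1.39 (SE 0.31, adjusted p = 0.0087), and without the tumor sample block 1.16 with adjusted p = 0.21. T cell-like cells led with 49.8 CPM early, 85.8 CPM medium and 134 CPM late, and microglia-like cells were lowest with 6.62, 6.42 and 5.04 CPM. Dendritic cell-like cells had 30.7 ± 29.5 CPM, macrophage or monocyte-like cells 24.9 ± 22.1 CPM, border or perivascular macrophage-like cells 17.9 ± 6.69 CPM and neutrophil-like cells 15.7 ± 10.3 CPM (SD, n = 3). Single cells weighed heavily in 3 of these sums. In the early macrophage or monocyte-like cells 16 of 22 Socs1 UMIs came from 1 cell, in the medium dendritic cell-like cells 12 of 28, and in the late T cell-like cells 9 of 35.

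**Figure D2:**
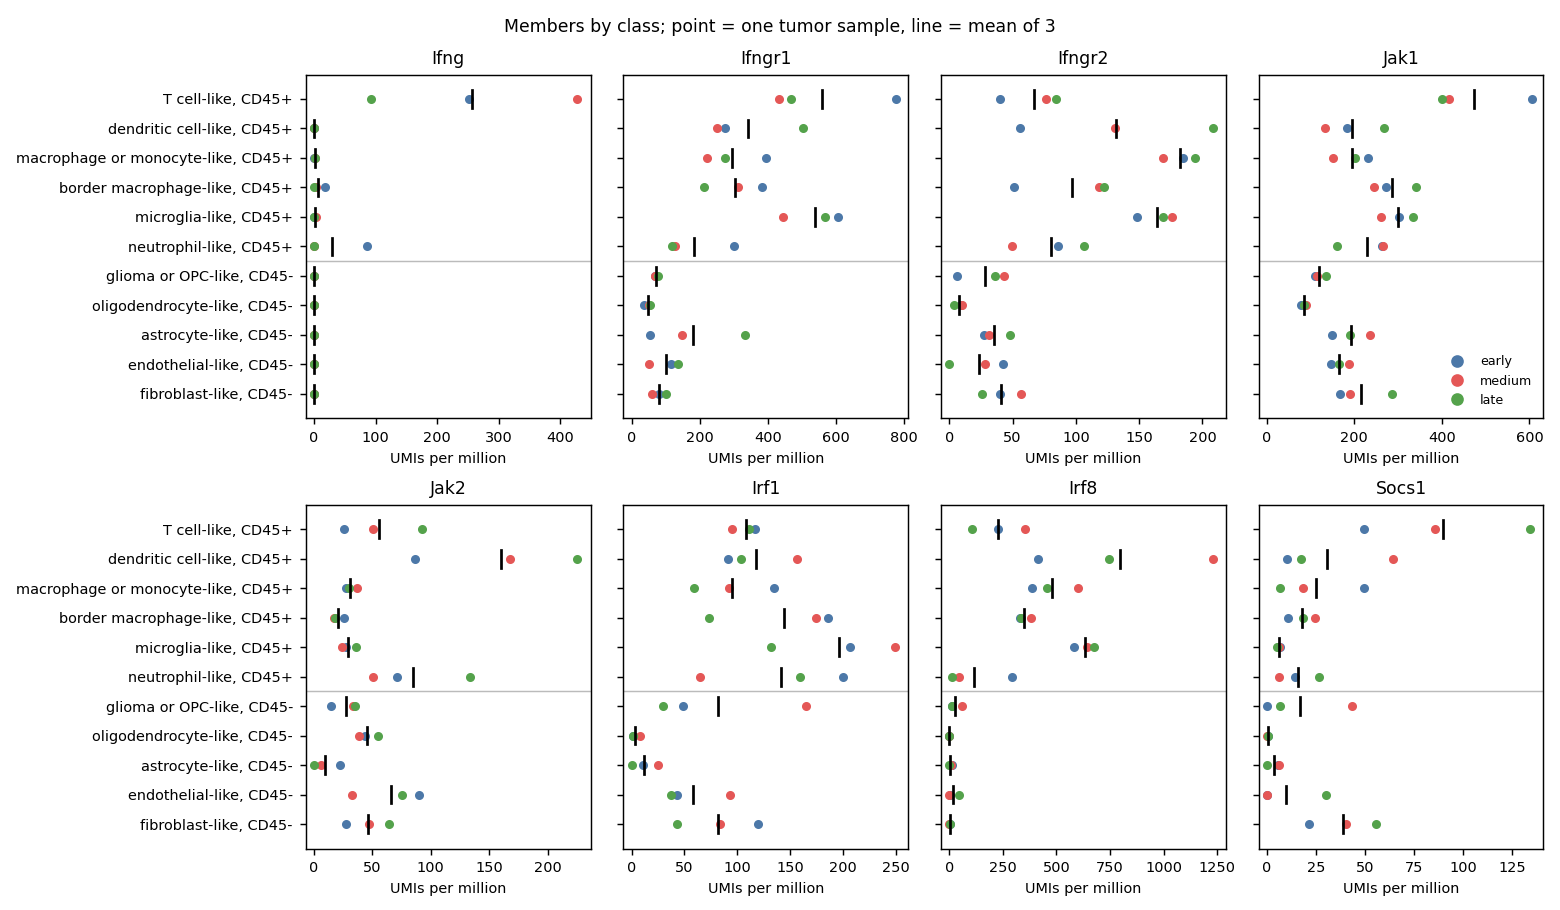
Level of each of the 8 genes in CPM by marker-defined class, with 1 point per tumor sample (early, medium, late) and a line at the mean of the 3. The 6 CD45+ classes stand above the grey line and the 5 CD45- classes below it. Among the CD45+ classes shown, the means of Ifng and Jak1 are highest in T cell-like cells, Jak2 and Irf8 in dendritic cell-like cells, Ifngr2 in macrophage or monocyte-like cells and Irf1 in microglia-like cells.

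The sorts were compared to ask which compartment carries the pathway. Of the 7 genes other than Ifng, 6 were higher in CD45+ cells and 0 lower. A gene can pass the count filter through its higher side alone, and its direction is then fixed. Tests and counts are therefore given here only for genes whose lower side reached the filter's cutoff in all 3 tumor samples, and the others by their levels. Ifng, at 0 in the CD45- sort, is one of the latter. The background was 20.3% of 14400 such genes higher and 20.4% lower. Over the 7 comparisons fitted, 21 calls of members met this rule and 8 did not. The 21 gave 63 values within the 3 sequencing runs, as means over tumor samples, and 63 had the direction of the test, which was made on the same samples. In 14 of these the run held 1 tumor sample with enough cells, and in 4 a single sample lay against the test. These were Jak2 in glioma-like against oligodendrocyte-like cells (0.61 in run 1 and 0.021 in run 3), and Irf1 (0.58, run 2) and Jak1 (-0.17, run 3) in T cell-like against microglia-like cells.

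The wider pathway was followed in lists of 16 inducers of Ifng and their receptors, 13 other JAK-STAT genes and 30 targets of interferon-γ. Only 4 of 15 inducer genes that passed the filter reached its cutoff in every sum of both sorts. Of these 2 were higher in CD45+ cells and 0 lower, the cytokine gene Il15 at 2.15 and the receptor gene Il18r1 at 1.20. Among those given by level, Il2rb, a receptor chain of interleukins 2 and 15, had 31.4, 61.2 and 19.7 CPM in CD45+ and 0.370, 0.152 and 0.0944 CPM in CD45- cells. Of 13 JAK-STAT genes 11 were higher and 1 lower. Their median log2 fold change was 1.16, against 0.04 over all genes with both sides over the cutoff. Ptpn6, a phosphatase of blood cells, led at 5.27, and Ptpn11, a phosphatase of most cell types, was the one lower at -0.89. Of 26 targets 19 were higher and 0 lower, with a median of 2.37, led by the MHC class II genes H2-Aa at 5.86 and H2-Eb1 at 5.81.

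Macrophage or monocyte-like cells were set against microglia-like cells as the main responding classes. Ifngr1, Irf1 and Jak1 were lower, and Ifngr2, Irf8 and Jak2 did not pass. These were 0 of 6 members higher and 3 lower, where 13.1% of 8757 genes were higher and 10.3% lower. Ifng had too few UMIs to be tested. Irf1 fell from 206, 249 and 132 CPM in microglia-like to 135, 91.8 and 59.1 CPM in macrophage or monocyte-like cells. Its log2 fold change was -0.94 (SE 0.19, adjusted p = 0.0021), lower in 3 of 3 samples, with adjusted p = 0.098 without the block. Ifngr1 had a log2 fold change of -0.75 (SE 0.15, adjusted p = 0.0019), with 606, 444 and 569.5 CPM in microglia-like cells and 394, 221 and 274 CPM in macrophage or monocyte-like cells. Jak1 had -0.49 (SE 0.16, adjusted p = 0.033) and missed the threshold in 6 alternatives. The 10 microglia markers summed to 6359, 5324.5 and 6505 CPM in macrophage or monocyte-like cells. The 12 macrophage markers summed there to 10354, 6925 and 6779.5 CPM, and to 333, 950 and 542 CPM in microglia-like cells. Their part in these differences was not tested.

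Socs1 had 49.5, 18.5 and 6.68 CPM in macrophage or monocyte-like and 6.62, 6.42 and 5.04 CPM in microglia-like cells, of which the late sum lay under the cutoff of 5.09 CPM. Without the 1 early cell that held 16 of 22 UMIs the early macrophage or monocyte-like level was 13.6 CPM. The difference of Ifngr2 was 0.30 (SE 0.16, adjusted p = 0.20), of Irf8 -0.26 (SE 0.15, adjusted p = 0.21) and of Jak2 0.27 (SE 0.26, adjusted p = 0.49).

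Several targets of interferon-γ were higher in macrophage or monocyte-like cells, where Irf1 and Ifngr1 were lower. Of 22 targets 10 were higher and 1 lower. Their median log2 fold change was 0.88, against 0.02 over all genes with both sides over the cutoff. Among those called were the peptide transporter gene Tap1 at 1.31, the checkpoint ligand gene Cd274 at 1.14 and the immunoproteasome gene Psmb10 at 1.07, and the adhesion molecule gene Icam1 was lower at -1.38. The MHC class II genes had larger differences that did not pass, such as H2-Aa at 3.41 (adjusted p = 0.18). Iigp1, an immunity-related GTPase given by level, had 119, 225 and 15.4 CPM in macrophage or monocyte-like and 11.7, 77.1 and 2.52 CPM in microglia-like cells. Of 12 JAK-STAT genes 1 was higher, Ptpn2 at 0.83, and 1 lower, Pias1 at -0.79. Of 3 inducer genes 0 passed edgeR, 0 had an unadjusted p under 0.05 and 0 passed DESeq2.

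T cell-like cells were set against both myeloid classes, to ask how the Ifng source differs from the responders. For Ifng and Socs1 no microglia-like sum reached the filter's cutoff of 7.29 CPM, and their levels stand above. Of the other 6 members 1 was higher and 3 lower than in microglia-like cells, where 18.6% of 7597 genes were higher and 16.2% lower. Jak1 was higher with a log2 fold change of 0.68 (SE 0.18, adjusted p = 0.0097). Irf8 was lower at -1.49 (SE 0.27, adjusted p = 0.0013), Ifngr2 as given above, and Irf1 at -0.85 (SE 0.24, adjusted p = 0.014). Irf1 missed the threshold without the medium sample (-0.54, adjusted p = 0.14) and Jak1 without the early sample (0.43, adjusted p = 0.20) and with DESeq2 (0.60, adjusted p = 0.067). Jak2 had 0.80 (SE 0.32, adjusted p = 0.064).

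Against macrophage or monocyte-like cells 2 of the 6 members other than Ifng and Socs1 were higher and 2 lower, where 10.4% of 5436 genes were higher and 12.5% lower. Jak1 was higher at 1.13 (SE 0.18, adjusted p = 0.0011) and Irf8 lower at -1.28 (SE 0.25, adjusted p = 0.0032), beside Ifngr1 and Ifngr2. Without the block Irf8 had adjusted p = 0.055. Irf1 had 0.06 (SE 0.26, adjusted p = 0.89) and Jak2 had 0.58 (SE 0.36, adjusted p = 0.28).

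Genes of the myeloid marker lists were present in the T cell-like sums. The 10 microglia markers summed to 4131, 3146 and 2511 CPM in T cell-like and 24157, 17791 and 24495 CPM in microglia-like cells. All 10 had UMIs in each T cell-like sum. The macrophage list, which holds Vim, Ly6c2, Itga4 and Plac8, summed to 2388, 1691 and 1785 CPM in T cell-like cells. It had UMIs of 10 or 11 of its 12 genes there, with Ms4a8a at 0 throughout. In the same sums the 10 T cell markers summed to 3855, 3362 and 3452 CPM. At clustering resolution 2 the T cell-like cluster itself had 5 of the macrophage markers raised at least 2-fold. The levels of Irf8 and of the other members and targets in T cell-like cells stand beside these values. The part of myeloid RNA in these levels was not tested. Within T cell-like clusters Irf8 ranged widely. It had 402 CPM early and 589 CPM medium in the cluster led by Izumo1r, Xcl1 and Cd27, and 9.58 CPM in the late cells of the cluster led by Il13. The cluster led by Gzmb and Cd8a had 50.8 CPM early and 258 CPM medium.

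Inducer genes were then compared between the Ifng source and the responding classes. Of 9 inducer genes in the comparison of T cell-like with microglia-like cells, 8 had a lower side that missed the filter's cutoff, so they are given by level. The 1 other, Ebi3, had -0.53 (adjusted p = 0.35). Il2rb had 415, 478 and 273 CPM in T cell-like and 0.368, 1.61 and 1.01 CPM in microglia-like cells. Stat4, the transcription factor of the interleukin 12 receptor, had 46.6, 45.8 and 65.3 CPM against 0.245, 0 and 0.504 CPM. The cytokine gene Il18 had 32.9, 20.3 and 28.8 CPM in microglia-like cells, against 8.03, 8.01 and 0 CPM in T cell-like cells. Of 12 JAK-STAT genes 4 were higher and 3 lower, with Jak3, a kinase of lymphocyte cytokine receptors, at 1.29 and Socs3 at -1.79. Of 21 targets 8 were higher and 2 lower. Their median was 0.37, against 0.04 over all genes with both sides over the cutoff.

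Against macrophage or monocyte-like cells 2 of 11 JAK-STAT genes were higher and 2 lower in T cell-like cells. Of the inducer genes Runx3 alone had a lower side over the cutoff in all 3 tumor samples, with -0.26 (adjusted p = 0.52). Of 19 targets 0 were higher and 5 lower by the edgeR test (0 higher at an unadjusted p under 0.05, and 0 by DESeq2). Their median was -0.47, against 0.02 over all genes with both sides over the cutoff. The called genes with the largest fall were H2-Aa and H2-Ab1 at -3.00 each and H2-Eb1 at -2.96. Cxcl9, the chemokine that attracts activated T cells, had 482, 887 and 1.54 CPM in macrophage or monocyte-like and 32.1, 64.1 and 0 CPM in T cell-like cells.

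Dendritic cell-like cells were set against macrophage or monocyte-like cells. Of 6 tested members 2 were higher and 0 lower, where 6.91% of 3574 genes were higher and 7.58% lower. Jak2 was higher with a log2 fold change of 2.24 (SE 0.31, adjusted p = 5.4e-04), in 3 of 3 samples. When each cell was named by its own markers it was 0.93 with adjusted p = 0.12. Irf8 had 0.58 (SE 0.16, adjusted p = 0.035) and missed the threshold in 5 alternatives. Ifngr2 had -0.62 and did not pass. The 12 macrophage markers, which include Vim, Ly6c2, Itga4 and Plac8, summed to 3613, 3630 and 4344 CPM in dendritic cell-like cells. The 10 dendritic cell markers summed there to 1445, 3573 and 1509 CPM. At clustering resolution 2 the dendritic cell-like cluster itself had 6 of the macrophage markers raised at least 2-fold. The part of macrophage RNA in these differences was not tested.

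The dendritic cell-like clusters differed in both genes. In the medium sample Irf8 reached 1929 CPM in the cluster led by Gcsam, Xcr1 and Itgae, markers of cross-presenting dendritic cells, and 1669 CPM in the cluster led by Apol7c. It had 267 CPM in the cluster led by Ccl17 and Cd209a, which had 106 CPM early and 109 CPM late. Jak2 in that last cluster had 135, 221 and 272 CPM, and the Xcr1 cluster had 136 CPM in the medium sample. Of 25 targets that passed the filter 17 were over the cutoff on both sides. In dendritic cell-like cells 3 of these were higher and 3 lower, with Ciita, the master activator of MHC class II, at 1.59 and Cxcl10 at -1.08. The other 8, whose lower side missed the cutoff in at least 1 tumor sample, are not counted. Of 7 JAK-STAT genes 1 was higher, Stat3 at 0.63. The 1 inducer gene counted, Runx3, had 0.69 (adjusted p = 0.17).

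In the CD45- sort, the class like glioma or oligodendrocyte progenitor cells was set against oligodendrocyte-like cells. Of Ifngr1, Jak1 and Jak2, the 3 members over the cutoff on both sides, 0 were higher by edgeR (0 at an unadjusted p under 0.05, and 0 by DESeq2) and 1 lower, where 8.25% of 9993 genes were higher and 17.9% lower. Irf1 had 48.9, 165 and 30.2 CPM in the glioma-like class and 1.37, 7.72 and 1.50 CPM in oligodendrocyte-like cells. Irf8 had 14.9, 58.9 and 12.4 CPM against 0.548, 1.36 and 1.00 CPM. Of the oligodendrocyte-like sums, 1 of 3 reached the filter's cutoff of 4.18 CPM for Irf1 and 0 of 3 for Irf8, so both genes passed the filter through the glioma-like side. Jak2 was lower at -1.14 (SE 0.33, adjusted p = 0.034), with 14.9, 33.7 and 34.7 CPM against 43.6, 38.1 and 55.0 CPM. It missed the threshold in 3 alternatives.

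Genes of the myeloid marker lists were present in these sums. The microglia list, which holds Sparc, summed to 592, 1587 and 2538 CPM in the glioma-like and 265, 292 and 211 CPM in the oligodendrocyte-like sums. The macrophage list, which holds Vim, summed to 200.03, 1270.4 and 2249.8 CPM against 26.3, 34.5 and 43.5 CPM. In the glioma-like sums 8 to 10 of 10 microglia and 6 to 12 of 12 macrophage markers had UMIs. Their part in Irf1 and Irf8 was not tested. Ifngr1 had 0.10 and Jak1 0.02, neither called. Only 4 of the 18 targets that passed the filter were over the cutoff on both sides, and 2 of the 4 were higher and 0 lower in the glioma-like class, Psmb10 at 1.73 and the MHC class I light chain gene B2m at 1.62. Irgm1, a GTPase given by level, had 27.7, 344 and 31.5 CPM in the glioma-like and 5.20, 33.1 and 2.00 CPM in the oligodendrocyte-like sums. Of 10 JAK-STAT genes 1 was higher and 1 lower, Socs3 at 5.79 and Ptpn11 at -2.06. Of the inducer genes Il18, the only one counted, was lower at -1.23.

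Endothelial-like cells, also against oligodendrocyte-like cells, had 1 of the same 3 members higher and 0 lower, where 14.4% of 5945 genes were higher and 14.0% lower. Irf1 had 42.8, 93.4 and 37.6 CPM. None of the oligodendrocyte-like sums, whose levels stand above, reached the filter's cutoff of 8.95 CPM. Jak1 had 146, 187 and 165 CPM, with 0.80 (SE 0.27, adjusted p = 0.032), and missed the threshold in 6 alternatives. Of 22 targets that passed the filter 4 were over the cutoff on both sides, and 3 of these, the MHC class I genes B2m at 3.39, H2-K1 at 2.33 and H2-D1 at 2.19, were higher and 0 lower. The guanylate-binding protein gene Gbp3, given by level, had 77.1, 178 and 67.7 CPM in endothelial-like and 0.548, 11.4 and 0 CPM in oligodendrocyte-like cells. Of 6 JAK-STAT genes 2 were higher and 1 lower, Stat2 at 1.49, Irf2 at 1.43 and Ptpn11 at -0.86. Il18 had 0 UMIs in endothelial-like cells and 63.8, 58.6 and 47.5 CPM in oligodendrocyte-like cells. The microglia list, which holds Sparc, summed to 2992, 3588 and 4460 CPM in endothelial-like cells, where 2 to 7 of its 10 genes had UMIs and Fcrls was at 0 throughout. Its part in Irf1 was not tested.

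**Figure D3:**
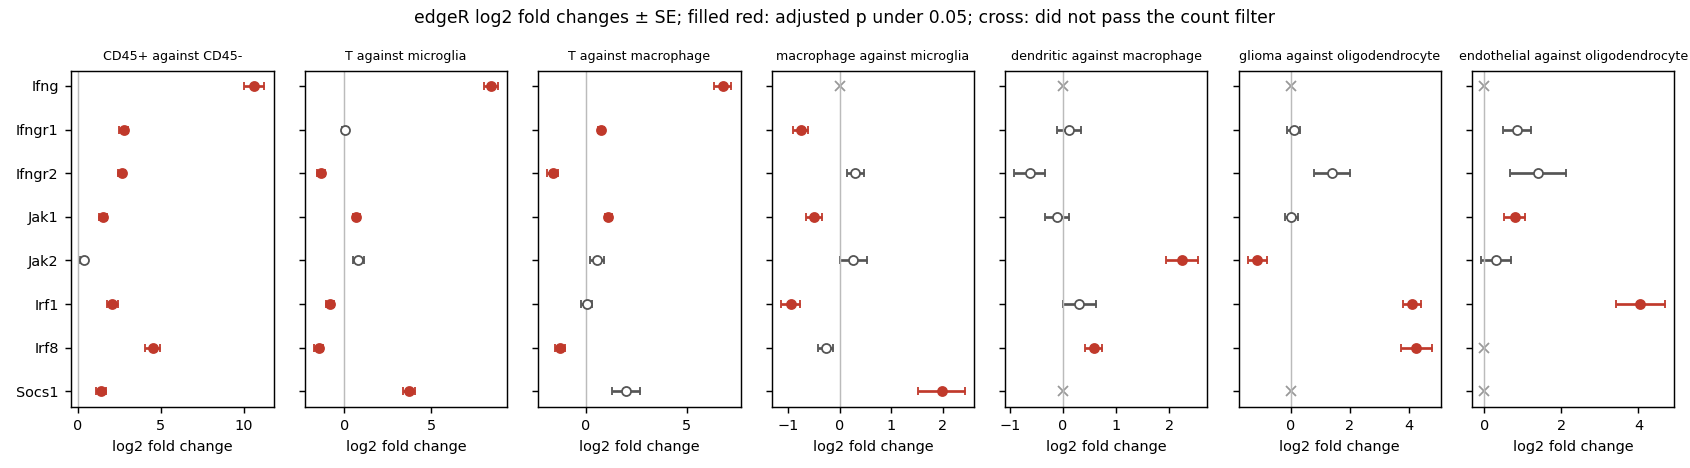
Log2 fold change of each of the 8 genes in the 7 comparisons, with its SE, from the edgeR fit on sums of 3 tumor samples. Filled points passed an adjusted p of 0.05, open points did not, and crosses mark genes that did not pass the count filter. For 8 filled points the lower side did not reach the filter's cutoff in all 3 tumor samples, and they are not read as calls (Ifng in 3 comparisons, Socs1 in both comparisons with microglia-like cells, Irf8 in glioma-like cells and Irf1 in glioma-like and endothelial-like cells). The Ifng point of the sort comparison depends on the prior count, since all CD45- samples were at 0, where the bound is at least 216-fold. In the comparisons with T cell-like cells Ifng lies far to the right and Ifngr2 to the left.

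Stages were compared within a class to ask how the pathway stood as the tumor grew. With 1 tumor sample per stage no test was made, and the values compare these samples. A member was counted when it differed at least 2-fold with at least 10 UMIs over both stages. In microglia-like cells 0 of 7 members passed this in the medium or the late sample. Within single runs Socs1 was lower in the late sample of run 2, on 28 and 2 UMIs, and in the medium sample of run 3, on 23 and 1 UMIs. Over all genes 5.55% were higher and 10.7% lower at the medium stage, and 5.23% higher and 6.23% lower at the late stage. Ifngr1 had 606 CPM early and 444 CPM medium (log2 ratio -0.45). Irf8 had log2 ratios of 0.14 (medium) and 0.21 (late). Irf1 had 206, 249 and 132 CPM, with a late log2 ratio of -0.64 (counting interval -0.84 to -0.45).

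Irf1 was lowest in the late sample within 4 of the 6 microglia-like clusters. In the cluster led by Tnf and Gpr84 it had 314, 560.0 and 168 CPM. In the cluster led by Ccr6, Crybb1 and P2ry12 it had 115, 165 and 40.2 CPM, and in the cluster led by Tmem119 168, 213 and 149 CPM. The cluster led by the heat shock genes Hspa1b and Hspa1a had 110.1, 77.4 and 100.5 CPM. In the cluster led by Cnbd2, Cep85 and Cxcl13 it had 207, 108 and 124 CPM, lowest in the medium sample, and the cluster led by Gm9973 had 243, 362 and 127 CPM. The shares of the clusters differed between samples. The Cnbd2 cluster held 4.32, 21.6 and 5.12% of microglia-like cells, the Tmem119 cluster 19.2, 6.20 and 41.4%, the Ccr6 cluster 22.8, 35.1 and 14.1% and the Tnf cluster 32.0, 23.4 and 21.4%.

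With the runs pooled, the 7 members with enough UMIs stayed within 2-fold in microglia-like cells, and many of the targets did not. Ifng had 3, 5 and 0 UMIs there and was not counted. In the medium sample 15 of 28 targets were at least 2-fold higher and 0 lower than early, with a median log2 ratio of 1.08 against -0.11 over all genes. Cxcl9 had 4.78 CPM early and 79.2 CPM medium, and H2-Aa 711 and 6519.7 CPM. In the late sample 0 were higher and 14 lower, with a median of -0.95 against 0.07, and Gbp2 had 47.5 CPM early and 4.04 CPM late. Within run 2 the counts were 16 higher (medium) and 12 lower (late), and within run 3 they were 16 higher with 1 lower (medium) and 14 lower (late). The medium counts stand beside the larger share of the Cnbd2 cluster. Without that cluster, an alternative chosen after seeing the data, 15 targets were higher and 1 lower in the medium sample, with a median of 1.12. Within each of the 6 clusters alone the target median was 0.85 to 1.08 in the medium sample and -1.65 to -0.71 in the late one. In microglia-like sums the 12 macrophage markers summed to 333, 950 and 542 CPM. The 10 microglia markers summed to 24157, 17791 and 24494.5 CPM. Whether free RNA of other cells adds to the target levels was not tested. Of 13 JAK-STAT genes 3 were higher in the medium sample (1 without the Cnbd2 cluster), and late 1 was higher. Of the inducer genes, 2 of 10 were higher at the medium (1 of 9 without that cluster) and 1 of 9 at the late stage.

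In macrophage or monocyte-like cells 0 members were higher and 1 lower in the medium sample, where 14.4% of genes were higher and 9.79% lower. In the late sample 0 were higher and 2 lower, where 17.5% were higher and 9.05% lower. Irf1 had 135, 91.8 and 59.1 CPM, with a late log2 ratio of -1.19 (counting interval -1.66 to -0.72), and -0.81 within run 2 and -1.82 within run 3. Socs1 had 49.5, 18.5 and 6.68 CPM, with ratios of -1.40 and -2.82. Without the 1 early cell with 16 UMIs its early level was 13.6 CPM and the ratios were 0.44 and -0.99, so that neither passed. Ifngr1 had 394, 221 and 274 CPM. Within run 3 the medium counts were 1 higher (Jak2, 1.06) and 1 lower (Ifngr1, -1.20), and within run 2 Socs1 alone was lower in the late sample.

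The macrophage or monocyte-like samples were not made of the same clusters. The cluster led by AC166110.3, Dcstamp and Ifi44l held 30.8, 76.5 and 3.93% of the early, medium and late cells, and the cluster led by Rnase2a, Arg1 and Gpnmb 36.3, 9.11 and 91.0%. Within the Arg1 cluster Irf1 had 146, 73.1 and 57.9 CPM. Of the targets, 5 of 29 were higher and 3 lower in the medium sample, with a median of 0.52 against 0.01 over all genes. These counts were 7 and 1 without the 1 early cell with 16 Socs1 UMIs, 4 and 4 within run 2, and 7 of 28 and 0 within run 3. In the late sample 1 of 28 was higher and 17 lower, with a median of -1.36 against 0.13, and 17 were lower also within each of runs 2 and 3. Cxcl9 had 482 CPM early and 1.54 CPM late, and Gbp2 257 and 8.22 CPM, whereas Ciita had 38.3 and 79.6 CPM. Of the JAK-STAT genes 0 of 13 passed in the medium sample, but 3 were higher and 2 lower within run 2, and 1 higher and 0 lower within run 3. Late, 1 was higher and 3 lower, with 2 and 3 within run 2 and 0 and 4 within run 3. Of the inducer genes 2 of 10 were higher in the medium sample and 3 of 7 lower in the late sample, with Il12b at 40.5 CPM early and 7.19 CPM late.

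In T cell-like cells 0 of 8 members passed in the medium sample, where 11.1% of genes were higher and 8.88% lower. The 0 did not hold within single runs. Within run 2 Ifng (1.14) and Jak2 (1.07) were higher and Ifngr1 (-1.06) lower, and within run 3 Ifngr2 (1.81) and Socs1 (1.22) were higher. In the late sample 3 were higher and 2 lower, where 12.1% were higher and 12.2% lower. Ifng had a medium ratio of 0.76 (counting interval 0.49 to 1.04) and a late ratio of -1.44 (-2.14 to -0.83), with late values of -1.52 within run 2 and -1.43 within run 3. Irf8 had a late ratio of -1.07. Jak2 had 1.80 (0.87 to 2.85), Socs1 1.41 (0.69 to 2.18) and Ifngr2 1.05 (0.18 to 1.96), but Ifngr2 was -0.995 within run 2 and 2.88 within run 3.

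These late values moved with the T cell-like cluster led by Il13. It held 42 of 109 late cells and 4 cells in each of the other samples, and its late cells had 258.6 CPM of Socs1, 125 CPM of Jak2, 9.58 CPM of Irf8 and no Ifng UMI. Without it Jak2 alone passed 2-fold late, at 1.40. Ifng then had 249.9 CPM early and 154 CPM late (-0.70), and Socs1 50.3 and 51.3 CPM (0.03). Among the lists, 6 of 28 targets were higher and 1 lower in the medium T cell-like cells, and 0 of 27 higher and 12 lower in the late ones, with medians of 0.45 and -0.80. Medium, these were 9 higher and 2 lower within run 2 and 7 and 3 within run 3, and late 1 higher and 9 lower within each of these runs. Of the inducer genes 2 of 11 were higher and 1 lower in the medium sample and 0 of 7 higher and 3 lower late. Tbx21, the main transcription factor of interferon-γ producing T cells, had 53.0 CPM early and 3.84 CPM late, and Il18r1 had 30.5, 82.4 and 11.5 CPM. Of the JAK-STAT genes 1 of 13 was higher and 2 lower in the medium sample and 0 of 12 higher and 3 lower late.

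**Figure D4:**
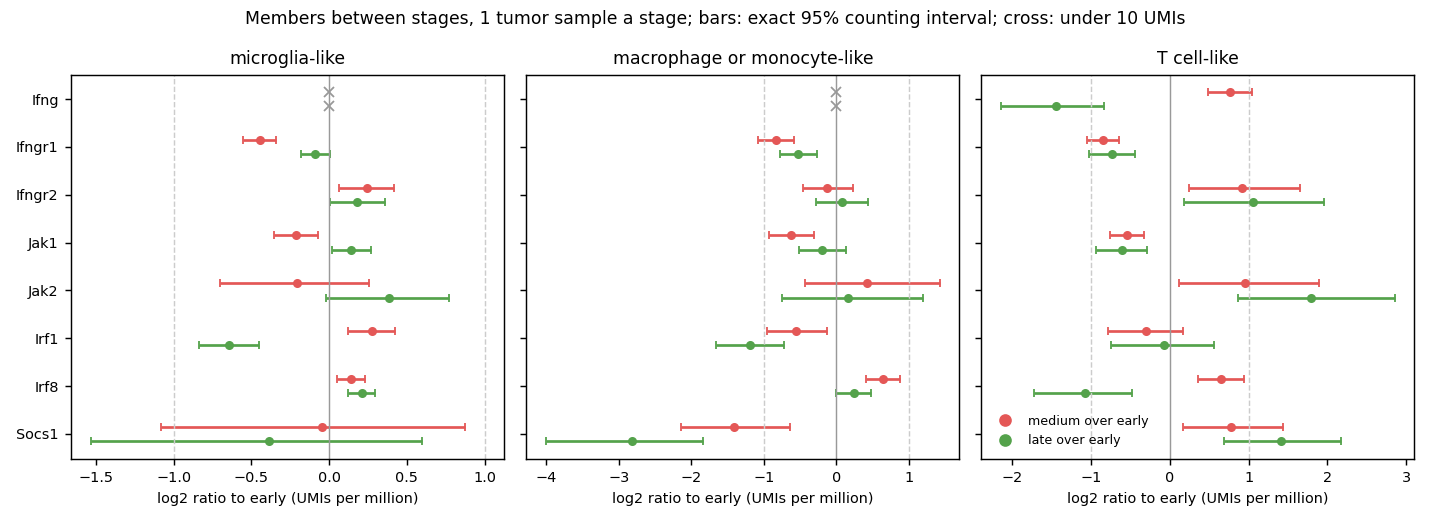
Log2 ratio of each of the 8 genes in the medium and the late sample over the early sample, in microglia-like, macrophage or monocyte-like and T cell-like cells of the CD45+ sort, with the 95% counting interval. A cross marks a gene with under 10 UMIs. With the runs pooled, the 7 microglia-like members with enough UMIs stay within 2-fold, macrophage or monocyte-like Socs1 and Irf1 lie low in the late sample, and T cell-like Ifng lies at 0.76 and -1.44.

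**Figure D5:**
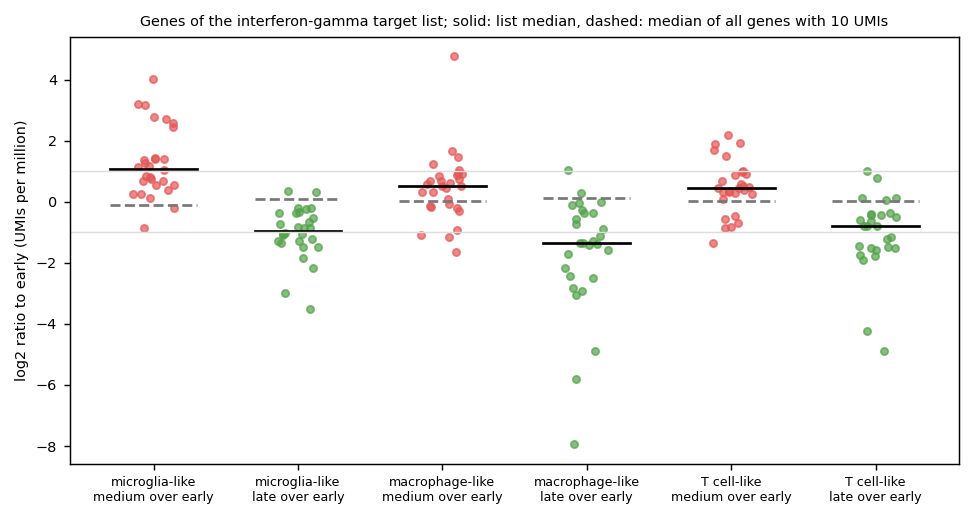
Log2 ratio over the early sample of each tested target of interferon-γ, 1 point per gene, in the same 3 classes, with the median of the targets (solid line) and of all genes with at least 10 UMIs (dashed line). In microglia-like cells the target median is 1.08 (medium) and -0.95 (late), and in T cell-like cells 0.45 and -0.80.

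For each member the genes most like it were sought over 21 sums in 3 tumor samples, from the 6 CD45+ classes compared above and from the pooled CD45+ cells that met no naming rule, such as cycling cells, among 9584 genes with a mean of at least 10 CPM, as Pearson r of log2(CPM + 1). The sums share tumor samples, runs and depth, so r is a description. Ifng was most like Gimap4 (r = 0.85), Ctla2a (0.84) and Trbc2 (0.83), the last a constant region of the T cell receptor. Ifngr1 was most like Mfng (0.87), Tnfaip3 (0.84) and Trp53i11 (0.84), and Ifngr2 like Rrbp1 (0.82), Dnmt3a (0.80) and Gatm (0.80). Jak1 was most like Gimap6 (0.75), Itga1 (0.74) and Foxo1 (0.72), and Jak2 like Actg1 (0.86), Lsp1 (0.82) and Rab11fip1 (0.81). Irf1 had the weakest likeness, with Casp4 and Ier5 at 0.68. Irf8 had the closest, with Ppfia4 at 0.94 and Nfix and Irf5 at 0.92. Socs1 was most like Zc3hav1 (0.79), Itga4 (0.76) and Med12 (0.75).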

How the data were processed

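Single cells of 3 tumor samples (early, medium, late) were measured by inDrop after sorting for CD45, in 24 libraries and 3 sequencing runs. The authors deposited 1 table of raw UMI counts per gene and cell, made per the study's methods with RapMap and bcbio against the Ensembl GRCm38 transcriptome, with EmptyDrops to find cells. The submitters' processing notes name the build mm10. A second deposited file of the authors has 1 line per library with its sort, stage, run and barcode, and holds labels and no measured score. Cells were tied to a library through the run and barcode in their names. The methods describe removal of ambient RNA and doublets, without saying whether this preceded the table. No column was left unused.

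Of 20811 deposited cells, 2917 were left out (under 500 UMIs, under 500 genes or over 20% mitochondrial UMIs), and 113 were called doublets, leaving 17781. A library held 62320 to 4226043 UMIs. Cells were clustered with scanpy 1.11.5 and leidenalg 0.10.2 (2000 variable genes, 40 components, 20 neighbours, resolution 1), without the 8 genes, the listed pathway genes other than class markers, sex-linked and mitochondrial genes. A cluster was named where at least 3 markers of a class were raised 2-fold in it. Leukocyte clusters in which a second leukocyte class also met this rule were clustered again at resolution 2. This second clustering was chosen after the clusters were seen.

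Counts were summed per tumor sample and class and tested with edgeR 4.0.16 in R 4.3.3 (quasi-likelihood, TMM, filterByExpr) with the tumor sample as a block, and Benjamini-Hochberg adjustment over all genes tested, at 0.05. Tests are given for genes whose lower side reached the filter's cutoff in all 3 tumor samples. Sides with under 20 cells were dropped with their pair. Each pair came from the same tumor sample. Deviations of paired sums correlated at 0.0662 to 0.379. Groups have 3 tumor samples, 1 of each stage, and libraries are not replicates. With the block, p-values measure how the difference between the sides varied over these 3. Stages were compared with a prior of 0.5 counts, a minimum of 10 UMIs and 95% counting intervals, with no test. Shares have exact Clopper-Pearson intervals, and a count of 0 was given a floor of 3 counts.

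The members and lists were chosen with earlier results of these data known. The text names the 8 members, from each list up to 3 called genes with the largest rise and 3 with the largest fall in a comparison, and the 3 genes most like each member. Leading genes of clusters and marker genes serve as names. Some genes are not reported here. Alternatives were DESeq2 1.42.0, no TMM factors, no low-count filter, no block, other cell filters and class names, and each tumor sample or library left out. Chosen after seeing the data were leaving out the 2 small late CD45+ libraries of run 1, the T cell-like cluster led by Il13, the microglia-like cluster led by Cnbd2, and the macrophage or monocyte-like cell with the most Socs1 UMIs.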

Additional observations from a re-analysis of the deposited data

Results flagged for a closer look

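In 4 of 45 groups of 4 libraries, a library lay far from the other 3 of its stage and sort by Dixon's criterion at the 95% level, which chance alone gives in about 1 group in 20. Ifngr1 was low in an early CD45- library of run 1 with 630 cells, at 61.3 CPM against 79.0 to 82.3 CPM in the others. Ifngr1 was low also in a late CD45- library of run 1 with 718 cells, at 64.8 CPM against 81.0 to 84.3 CPM. Ifngr2 was high in the late CD45+ library of 17 cells, at 273 CPM from 17 UMIs against 152 to 165 CPM. Ifngr2 was high in a late CD45- library of run 3 with 492 cells, at 32.0 CPM against 28.8 to 29.2 CPM.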

How the results depend on the processing

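Over 48 member results there were 538 values under alternatives: 472 kept direction and side of the threshold, 31 lost and 18 gained a call, and 17 changed sign. Of the 29 calls, 8 had a lower side that missed the count filter's cutoff. For 6 of these no sum of the lower side reached the cutoff, so the filter fixed their direction. All 8 are in the totals here, and nothing is read from them. Of the other 21, 10 held under every alternative and 0 changed sign. Where a cause is not plain from the construction, it was not tested. Depth limits Ifng and Socs1 most, and 3 tumor samples limit every test.

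Without the tumor sample block the called members were 1 for macrophage or monocyte-like against microglia-like cells (main 4), 3 for T cell-like against macrophage or monocyte-like cells (main 5) and 1 for dendritic cell-like cells (main 2). The unblocked fit lost the calls of Socs1 between sorts and in macrophage or monocyte-like cells and those given beside the results, and changed no other count by over 1.5 times. Dendritic cell-like calls were 1 also with DESeq2, with names from each cell's own markers, with doublets kept and with every gene with a count, and 1 to 3 with a tumor sample left out. Glioma-like calls (main 3) were 5 with every gene and 2 to 5 with a sample left out. Endothelial-like calls (main 2) were 1 with DESeq2, with names from own markers and with every gene, and 1 to 2 with a sample left out. The share of Ifng UMIs in T cell-like and NK cell-like cells (main 85.1%) was 89.2% at resolution 2 and 89.2% with doublets kept, and 76.4 to 90.2% with a sample left out. The stage counts were, for microglia-like cells (main 0), 1 with names from own markers, 1 within run 2 and 1 within run 3, and 0 to 1 with a library left out. For macrophage or monocyte-like cells (main 3) they were 1 with names from own markers, 1 without the cell with most Socs1 UMIs, and 2 to 3 with a library left out. For T cell-like cells (main 5) they were 3 with names from own markers, 8 within run 2, 1 without the cluster led by Il13, and 4 to 7 with a library left out.

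Changes of sign were in differences that passed no test in the main analysis. For macrophage or monocyte-like against microglia-like cells, Jak2 was -0.015 without the medium sample (-0.015 to 0.48 with a sample left out). For T cell-like against microglia-like cells, Ifngr1 was -0.032 with DESeq2, -0.15 with every gene and -0.20 without the early sample (-0.20 to 0.15). For T cell-like against macrophage or monocyte-like cells, Irf1 was -0.024 with every gene, -0.23 without the late sample (-0.23 to 0.24) and -0.043 without the cluster led by Il13. For dendritic cell-like cells, Ifngr1 was -0.024 at resolution 2, -0.036 with doublets, -0.030 with every gene and -0.19 without the late sample (-0.19 to 0.37), and Jak1 0.27 with names from own markers. For glioma-like cells, Jak1 was -0.15 with names from own markers, -0.0019 with every gene and -0.13 without the late sample (-0.13 to 0.096). For endothelial-like cells, Jak2 was -0.12 with names from own markers and -0.10 without the early sample (-0.10 to 0.55).

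Without TMM factors the median of all genes moved by over 0.1 in several comparisons, to -0.40 between sorts and 0.52 for glioma-like cells. Genes higher and lower were then 2589 and 6559 between sorts (main 3759 and 4744), 1077 and 1732 for macrophage or monocyte-like against microglia-like cells (main 1438 and 1190), 1355 and 893 for T cell-like against macrophage or monocyte-like cells (main 976 and 1096) and 3866 and 1273 for glioma-like cells (main 2289 and 2158). The 21 calls kept their direction.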

Other observations

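T cell-like cells with and without an Ifng UMI were compared for the other members, as sums over 113 and 665 cells with counting intervals and no test. Socs1 had 107 CPM (71.8 to 154) in cells with and 75.3 CPM (62.0 to 90.6) in cells without an Ifng UMI. Ifngr1 had 607 CPM (517 to 707) and 551 CPM (514 to 590), and Ifngr2 51.8 CPM (28.3 to 86.9) and 67.3 CPM (54.7 to 81.8). The intervals overlapped for these and for Jak1, Jak2, Irf1 and Irf8. Among inducer genes Il18r1 had 85.1 CPM (53.9 to 128) and 47.8 CPM (37.3 to 60.2), again overlapping.

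Some CD45- classes outside the tests held members at levels of their own. Microglia-like cells found in the CD45- sort had 554, 367 and 769 CPM of Ifngr1, in the order early, medium, late, and a mean of 467 ± 99.1 CPM of Irf8 (SD, n = 3). Astrocyte-like cells had 54.8, 149 and 334 CPM of Ifngr1, from only 84, 56 and 27 cells. Fibroblast-like cells had 119, 83.8 and 42.6 CPM of Irf1 and 21.4, 40.2 and 55.4 CPM of Socs1. Choroid plexus epithelial-like cells had a mean of 11.55 CPM of Ifngr1.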
